A study of Homo sapiens with 6 samples.

Results

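MEST, IGF2, H19, DLK1, MEG3, PEG3, PEG10, PLAGL1, GRB10 and NDN are imprinted genes of embryonic growth and muscle, meaning that the copy inherited from 1 parent is used and the other is largely silent. They were chosen by symbol, as 10 of the 35268 named genes in the table. Their RNA was measured in Rh30, an established line of fusion-positive rhabdomyosarcoma, a childhood cancer with features of skeletal muscle. All libraries came from this 1 line, grown in RPMI with fetal bovine serum. Cells of 1 group had been exposed for 24 hours to 1 µM YK-4-279, a small molecule described as an inhibitor of ETS transcription factors, and cells of the other for as long to its solvent DMSO, and each group has 3 libraries. The labels number the libraries as replicates without saying that they came from separate cultures, so the p-values measure the spread between these libraries, which may be technical.

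Imprinting is set in the germ line by DNA methylation at control regions and is kept through cell division by the maintenance methylation machinery. Several paternally expressed genes, among them IGF2, promote fetal growth, and several maternally expressed genes, among them H19 and GRB10, restrain it. Relaxed imprinting or loss of the maternal copy of the IGF2 region is common in rhabdomyosarcoma. RNA counts do not separate the parental copies, so nothing here measures imprinting itself, and in a bulk culture fewer cells of a type and less RNA per cell cannot be told apart.

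The libraries held between 16724650 and 24677433 reads on named genes. DMSO replicate 1 stood apart from the rest, with 6.05% of its reads on mitochondrial genes (Wilson 95% interval 6.04 to 6.06%, counting error only) against 4.74 to 5.03% in the other libraries, and the main results were also fitted without it. The rhabdomyosarcoma markers were present, with MYOD1, the master regulator of muscle fate, at 34516 to 39146 normalized counts, while MYF5 and MYF6 were each at 2 or fewer. Of 13 markers tested, 6 were higher and 7 lower, and 1 passed the test, or 7.69% against 3.41% of all genes. This was ACTC1, cardiac actin, which rose from 23347 ± 822 to 30096 ± 880 (SD, n = 3 each; limma adjusted p = 0.00528), a call lost without the variance trend (adjusted p = 0.0946) and without YK-4-279 replicate 1 or 2 (0.0580 and 0.0644). The summed level of the 15 markers was 115361 to 127744 with DMSO and 125579 to 131625 with YK-4-279. Among markers of other cells, the 5 endothelial genes summed to 228 to 309 with DMSO and 211 to 236 with YK-4-279, most of it TEK (232 ± 39.0 and 176 ± 11.8), with ERG at 0, and the 5 epithelial genes to 61.8 to 73.1 and 71.7 to 96.0, most of it EPCAM (55.8 ± 7.51 and 73.4 ± 14.3), with KRT5 at 0. Of the blood cell markers, the monocyte gene CD14 was at 3.78 to 11.99 normalized counts with DMSO and 15.01 to 23.1 with YK-4-279, and HBB was at 0. In the main fit TEK, EPCAM and CD14 did not pass (log2 fold changes -0.38, 0.38 and 1.20, limma adjusted p = 0.128, 0.305 and 0.140). TEK passed only with a smooth trend on base composition (GC) and transcript length removed (limma adjusted p = 0.0337). What part these levels have in the differences between the groups was not tested.

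MEST encodes a membrane protein of the alpha/beta hydrolase fold that marks mesoderm, and it is expressed from the paternal copy. ENSG00000106484.16 lies on hg38 at chr7:130486171-130506465, on the plus strand. It hosts the microRNA MIR335 in an intron. Its RefSeq sequences (GRCh38.p14) are shown because they identify the intronic product of this locus, with the seed, bases 2 to 8, in capitals. Both lie on the plus strand, miR-335-5p at chr7:130496126-130496148 and miR-335-3p at chr7:130496162-130496183, and the 2 seeds differ.
hsa-miR-335-5p: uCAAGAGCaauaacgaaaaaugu
hsa-miR-335-3p: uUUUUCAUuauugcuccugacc
The MEST row was among the highest of the table while the MIR335 row was at 0 in all 6 libraries. The libraries were made from polyA RNA, in which mature microRNAs are not captured.

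ETS factors bind a core of GGAA, read TTCC on the other strand, so the 250 bases before annotated starts were searched for either spelling, and each match is in capitals. RefSeq windows were at hand for 6 of the 10 genes (MEST, H19, MEG3, PLAGL1, GRB10 and NDN), 20 windows in all, of which 18 held at least 1 match. Over all 34943 windows of this length the share was 92.7%, so a match is the usual state. The windows shown are the ones before a pair of internal MEST starts (GRCh38.p14, plus strand), since they include 1 of the 2 windows without a match, and the window before the outermost PLAGL1 start (minus strand). Another RefSeq window of MEST ends at chr7:130492057, so the last bases of the lower MEST window follow a further annotated start. The PLAGL1 window lies outside the span of that gene in GENCODE.
MEST, chr7:130491079-130491328: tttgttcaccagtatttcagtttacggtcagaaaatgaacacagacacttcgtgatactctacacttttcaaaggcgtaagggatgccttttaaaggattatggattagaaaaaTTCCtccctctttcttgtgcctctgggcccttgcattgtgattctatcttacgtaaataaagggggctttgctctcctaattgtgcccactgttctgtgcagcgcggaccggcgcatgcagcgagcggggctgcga
MEST, chr7:130491835-130492084: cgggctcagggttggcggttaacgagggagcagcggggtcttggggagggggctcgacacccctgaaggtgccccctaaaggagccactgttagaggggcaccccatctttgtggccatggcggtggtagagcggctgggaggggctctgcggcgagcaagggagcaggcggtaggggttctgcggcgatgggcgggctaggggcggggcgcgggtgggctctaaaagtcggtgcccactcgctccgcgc
PLAGL1, chr6:144064600-144064849: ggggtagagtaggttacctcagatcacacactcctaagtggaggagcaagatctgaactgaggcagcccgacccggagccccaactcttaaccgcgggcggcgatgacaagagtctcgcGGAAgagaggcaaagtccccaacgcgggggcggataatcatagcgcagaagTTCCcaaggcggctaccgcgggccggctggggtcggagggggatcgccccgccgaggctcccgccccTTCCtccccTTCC
The upper MEST window held 1 match, at 46.8% GC and with 11 CG pairs. The lower MEST window held no match, at 69.6% GC and with 20 CG pairs, against a median of 58.0% GC and 11 CG pairs over all windows. In the PLAGL1 window there were 4 matches, against a median of 3, with 64.8% GC and 21 CG pairs. These letters describe the windows, and no binding was measured.

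The levels of the 10 genes spanned nearly the whole range of the transcriptome. Levels between genes are given per kilobase of exon, as the normalized count divided by the length of all annotated exons joined. MEST was the highest of the 10, with 6737 ± 561 normalized counts per kilobase with DMSO and 6578 ± 183 with YK-4-279 (SD, n = 3 each), and ranked 58 among the 13705 tested genes of known length. PEG10, a retrotransposon-derived gene needed for placental growth, followed at rank 86 with 4573 ± 365 and 4201 ± 22.2, IGF2 at rank 226 with 2504 ± 117 and 1779 ± 87.8, and PEG3, a zinc finger protein, at rank 387 with 1389 ± 37.6 and 1515 ± 34.3.

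MEG3, a maternally expressed noncoding RNA, ranked 1105 with 639 ± 46.6 normalized counts per kilobase with DMSO and 708 ± 66.9 with YK-4-279, and PLAGL1, a growth-restraining zinc finger transcription factor, ranked 1382 with 599 ± 27.7 and 517 ± 5.25. The libraries of MEG3 and PLAGL1 overlapped in level, PLAGL1 being the higher of the pair in DMSO replicate 1, and every other pair of neighbours from MEST down to GRB10 was apart in all 6 libraries. GRB10, an adaptor that dampens insulin and IGF1 receptor signalling, ranked 12021 with 8.73 ± 1.55 and 9.61 ± 0.35. MEST and PEG10 lay in the top 1% of tested genes by this measure. With the longest transcript as the length in place of the joined exons, 1 gene did, PEG10 falling just outside.

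**Figure D1:**
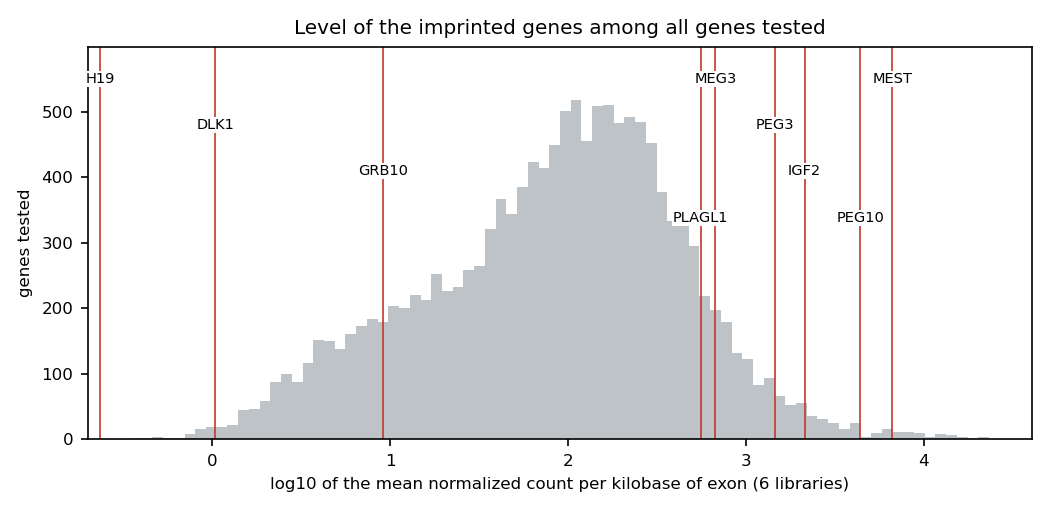
Level of each imprinted gene (red lines) on the distribution of the tested genes of known length (grey bars), as log10 of the mean normalized count per kilobase of exon over the 6 libraries. MEST and PEG10 sit at the far right, GRB10 on the left shoulder, and H19 and DLK1, which were not tested, at or beyond the left edge. NDN had 0 reads and is not drawn.

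H19, DLK1 and NDN were at or near 0. H19, the maternally expressed noncoding RNA next to IGF2 (chr11:1995166-2004552, minus strand), had 3, 0 and 0 reads in DMSO replicates 1 to 3 and 0, 1 and 0 in YK-4-279 replicates 1 to 3. NDN, a MAGE family protein of the Prader-Willi region (chr15:23685400-23687305, minus strand), had 0 reads in every library, which allows up to 3 reads, or 2.50 to 3.78 normalized counts depending on the library. DLK1, a secreted and membrane-bound relative of the NOTCH ligands that restrains differentiation (chr14:100725705-100738224, plus strand), had 2, 11 and 9 reads with DMSO and 4, 4 and 4 with YK-4-279. The DLK1 groups overlapped. These 3 genes did not reach the mean of 10 normalized counts required for a test, and a difference between the groups was not detectable at this depth.

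Of the 7 genes tested, 1 fell and 6 did not pass the test, which is a limma adjusted p under 0.05 with Benjamini-Hochberg adjustment over 13930 genes. Over all genes tested 475 passed, or 3.41%, with 1.26% higher and 2.15% lower. At an unadjusted p under 0.05 there were 3 of the 7, 2 lower and 1 higher, where 18.7% of all genes had one. The median log2 fold change, YK-4-279 minus DMSO, was -0.03 for the 7 genes and -0.01 for all genes.

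IGF2, the growth factor that signals through the IGF1 and insulin receptors, was the gene that fell (ENSG00000167244.22, chr11:2129112-2158391, minus strand). DMSO replicates 1, 2 and 3 had 18756, 17839.6 and 17093 normalized counts of IGF2, and YK-4-279 replicates 1, 2 and 3 had 13037, 13108 and 11988. Every treated library lay below every control library, with a wide gap between the groups. The mean went from 17896 ± 833 to 12711 ± 627 (SD, n = 3 each), or 71.0% of the DMSO level. On the scale of log2(normalized count + 1) the fold change was -0.49, with a standard error of 0.06, a 95% interval of -0.62 to -0.37 and a limma adjusted p of 0.00118. Of all tested genes, 5.38% changed by more in either direction. The call was kept when any 1 library was left out, with log2 fold changes of -0.53 to -0.45, and it was lost without the trend in limma's variance prior (adjusted p = 0.0763), a setting under which 33 genes, or 0.237%, passed.

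IGF2 shares its span with other annotated genes. IGF2-AS, transcribed from the opposite strand, had 251, 316 and 311 normalized counts with DMSO and 296, 328 and 312 with YK-4-279, so the groups overlapped, with a log2 fold change of 0.10 (limma adjusted p = 0.662) whose sign turned without DMSO replicate 1. The microRNA gene MIR483, in an IGF2 intron, averaged 13.1 normalized counts, and the INS-IGF2 readthrough row was at 0. The library kit keeps strand, but the strand setting of the counting is not given in the sources used here. The IGF2-AS row had a mean of 302, and what reads of the opposite strand added to the IGF2 row was not tested.

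**Figure D2:**
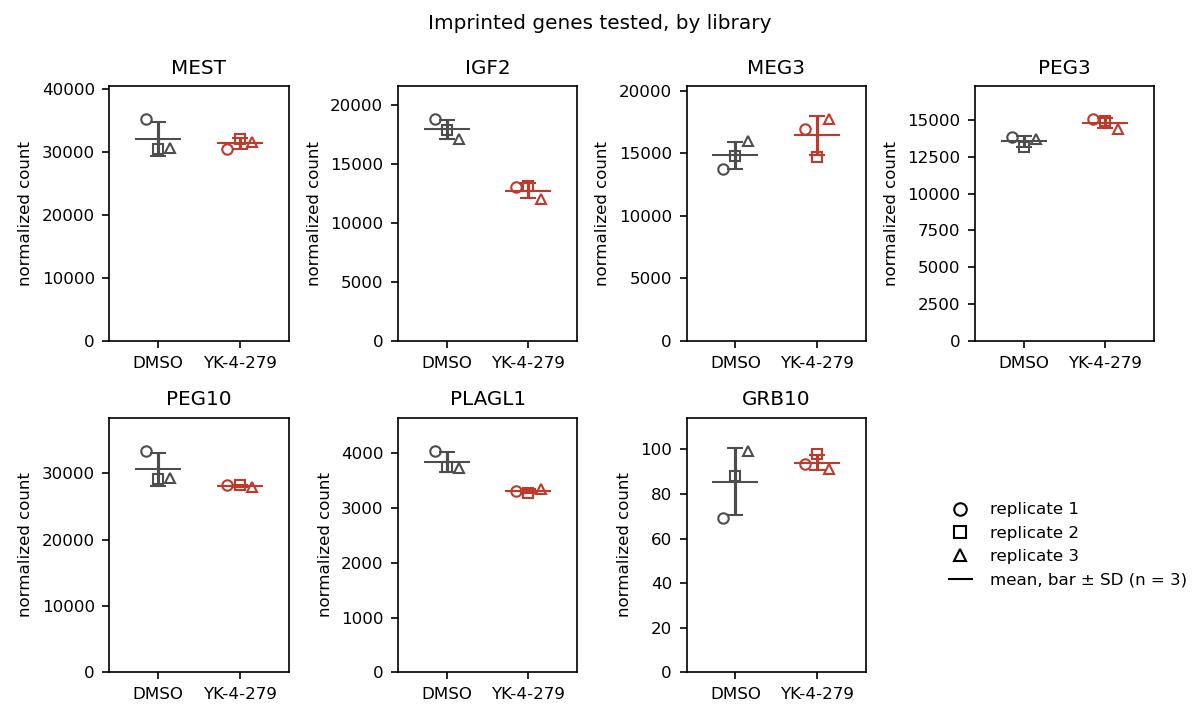
Normalized counts of the 7 tested imprinted genes in each library, with DMSO in grey and YK-4-279 in red. Horizontal lines are means, bars are ± SD (n = 3), symbols mark the replicate number, and each axis starts at 0. The IGF2 groups are well apart, and those of MEST, MEG3 and GRB10 overlap.

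MEST itself did not pass the test. Its 3 DMSO libraries held 35207, 30559 and 30586 normalized counts, and the 3 with YK-4-279 held 30416, 32133 and 31529. Only DMSO replicate 1 was high, and without it the other control libraries lay inside the range of the treated ones. The means were 32117 ± 2675 and 31359 ± 871 (SD, n = 3 each). The log2 fold change was -0.03 with a standard error of 0.06 (limma adjusted p = 0.833). The 95% interval, -0.17 to 0.11, corresponds to between 0.889 and 1.08 times the DMSO level. Of all tested genes, 84.4% changed by more than MEST. The sign depended on DMSO replicate 1 and on the scaling, being 0.04 without that library and 0.02 when each library was scaled to its total. The antisense gene MESTIT1 averaged 22.6 normalized counts and the opposite-strand neighbour COPG2 1163, both low beside MEST.

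PLAGL1, PEG10 and PEG3 had groups that did not overlap but did not pass the test. Of the 7 genes, 4 had groups that did not overlap, IGF2 and these 3, of which 3 were lower and 1 higher, and over all tested genes the share was 26.0% (10.9% higher and 15.1% lower). PLAGL1 (chr6:143940300-144064599, minus strand) had 4047, 3749 and 3731 normalized counts with DMSO and 3311, 3277 and 3345 with YK-4-279. Its treated libraries were all lower and lay close together. The mean was 3843 ± 178 against 3311 ± 33.7, with a log2 fold change of -0.21, a standard error of 0.06 and an interval of -0.34 to -0.09 (limma adjusted p = 0.0591). Without DMSO replicate 1 it passed, at -0.18 (adjusted p = 0.00195), where 13.1% of all genes passed. It also passed when a smooth trend on base composition (GC) and transcript length was taken out of each library, at -0.22 (adjusted p = 9.4e-04), where 14.0% of genes passed. The row may include reads of HYMAI, a noncoding RNA inside PLAGL1 that averaged 37.0 normalized counts.

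PEG10 (chr7:94656325-94669695, plus strand) had 33407, 29096 and 29263 normalized counts with DMSO and 28191, 28176 and 27927 with YK-4-279. DMSO replicate 1 was the high library, as for MEST, and the treated libraries lay just below the other controls. The log2 fold change was -0.12, with a standard error of 0.06 and an interval of -0.25 to 0.01 (limma adjusted p = 0.320), and without DMSO replicate 1 it was -0.05. SGCE, the imprinted neighbour on the opposite strand, had a log2 fold change of -0.24 (limma adjusted p = 0.156).

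PEG3 (chr19:56810077-56840728, minus strand) lay in the other direction. The DMSO libraries had 13845, 13149 and 13703 normalized counts of PEG3 and the YK-4-279 libraries 15054, 14924 and 14419. All treated libraries were above all controls, by a narrow margin. The log2 fold change was 0.13, with a standard error of 0.05 and an interval of 0.01 to 0.24 (limma adjusted p = 0.222). It passed without DMSO replicate 1, at 0.14 (adjusted p = 0.0115), under quantile normalization, at 0.18 (adjusted p = 0.0395), where 1.99% of genes passed, and with the GC and length trend removed (adjusted p = 0.0343).

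For MEG3 (chr14:100779410-100861031, plus strand) the normalized counts were 13785, 14816 and 15951 with DMSO and 16912, 14721 and 17724 with YK-4-279. The groups overlapped, since treated replicate 2 lay among the controls. The log2 fold change was 0.15, with a standard error of 0.07 and an interval of -0.01 to 0.31 (limma adjusted p = 0.311), and it was 0.09 without DMSO replicate 1 or YK-4-279 replicate 3 and 0.22 without YK-4-279 replicate 2. GRB10 (chr7:50590063-50793462, minus strand) had 69.3, 87.9 and 99.4 normalized counts with DMSO and 93.4, 97.8 and 91.0 with YK-4-279. Its treated libraries lay within the range of the controls, and the log2 fold change of 0.15 had a standard error of 0.16 and an interval of -0.20 to 0.50 (limma adjusted p = 0.656). It was 0.0086 without DMSO replicate 1, the lowest library, and 0.26 without DMSO replicate 3, the highest.

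**Figure D3:**
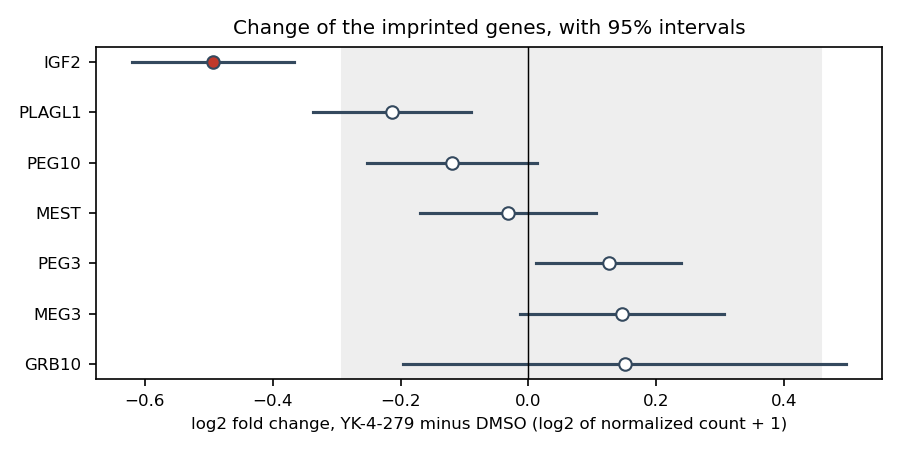
Log2 fold change of the 7 tested imprinted genes (points) with 95% intervals (lines), YK-4-279 minus DMSO. The filled red point passed the test, open points did not, and the grey band spans the 5th to the 95th percentile of all tested genes, -0.29 to 0.46. IGF2 lies outside the band and the other 6 points inside it.

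Each domain's growth factor and noncoding RNA were set against each other. In the IGF2 domain, the paternally expressed IGF2 was abundant and the maternally expressed H19 had 4 reads in all 6 libraries together. With H19 at 0 in 4 libraries, the difference in the mean log2 ratio of H19 to IGF2, YK-4-279 minus DMSO, was set by the pseudocount, being 0.02, 0.09 and 0.39 with pseudocounts of 0.5, 1 and 10 (exact two-sided permutation tests, p = 1, 1 and 0.1), and nothing is read from it. In the domain on chromosome 14 the noncoding RNA was abundant and the growth regulator DLK1 was not, and the difference in the mean log2 ratio of MEG3 to DLK1 was 0.68 (exact two-sided permutation test, p = 0.4, and 0.8 after Benjamini-Hochberg adjustment over the 2 pairs). That ratio difference was 0.30 without DMSO replicate 2, 1.13 without DMSO replicate 1 and 0.40 with a pseudocount of 10. With 3 libraries against 3, no p under 0.1 was possible in either test.

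Genes next to the 10 loci were counted to describe their surroundings. Within 500 kb of any of the 10 genes lay 239 other genes of the table, of which 73 were tested. Of these, 41 were higher and 32 lower, and 3 passed the test, 2 of which rose and 1 fell, or 4.11% against 3.41% over all genes. Without DMSO replicate 1 there were 6 of the 73, where 13.1% of all genes passed. The median log2 fold change was 0.04. The gene that fell was FIGNL1, a DNA repair ATPase near GRB10, from 1401 ± 72.5 to 1126 ± 21.0 normalized counts (log2 fold change -0.31, limma adjusted p = 0.0226). DUSP8, a MAP kinase phosphatase near H19, rose from 219 ± 19.2 to 316 ± 32.6 (log2 fold change 0.53, limma adjusted p = 0.0214). Both calls were lost with the replicate block (adjusted p = 0.0675 for FIGNL1 and 0.0584 for DUSP8), without the variance trend (0.115 and 0.110) and without any 1 treated library (0.115 to 0.148 and 0.0914 to 0.165). The FIGNL1 call was also lost under quantile normalization (0.0546), scaling to the library total (0.0527) and without DMSO replicate 3 (0.0730). The other that rose was KCNQ1OT1, near IGF2. Around MEST, 12 neighbours were tested by limma, 5 of them higher and 7 lower, and none passed after adjustment, with 3 at an unadjusted p under 0.05 (1 higher and 2 lower), where 18.7% of all genes had one.

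Around IGF2, 13 neighbours were tested, 11 of them higher and 2 lower, where 6684 of the 13930 genes tested were higher. Their median log2 fold change was 0.23, and 1 gene, KCNQ1OT1, passed, where 3.41% of all genes did. There were 5 at an unadjusted p under 0.05, all higher, where 18.7% of all genes had one. TSSC4 had a log2 fold change of 0.49 (limma adjusted p = 0.0516), and it passed at 0.30 without DMSO replicate 1 (adjusted p = 3.2e-04), without DMSO replicate 2 or 3 (0.0153 and 0.0365) and with the GC and length trend removed (8.6e-04). It also passed with no filter on the mean (limma adjusted p = 0.0373) and with a pseudocount of 10 (0.0485). IGF2 had the opposite sign to most of its neighbours. Those neighbours moved with 1 library, since without DMSO replicate 1 there were 7 higher and 6 lower, with a median of 0.02. With the GC and length trend removed, 8 were higher and 5 lower, with a median of 0.14, and IGF2 was at -0.58. Without DMSO replicate 1, IGF2 was at -0.46.

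**Figure D4:**
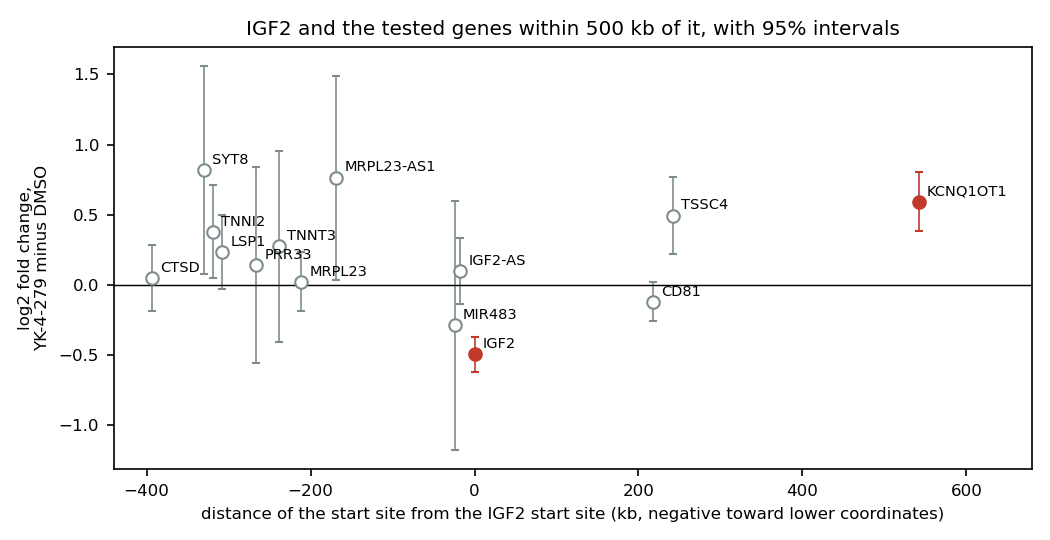
Log2 fold change, YK-4-279 minus DMSO, of IGF2 and its 13 tested neighbours (points) with 95% intervals (bars), against the distance between start sites in kilobases, negative toward lower coordinates. Filled red points passed the test. IGF2 lies at the bottom and KCNQ1OT1, whose body but not its start lies within 500 kb, at the right.

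Among 47 other imprinted genes listed, 45 were in the table and 31 were tested. Of these, 15 were higher and 16 lower, and 1 passed, or 3.23% against 3.41% of all genes. Without DMSO replicate 1, 6 of the 31 passed, where 13.1% of all genes did. The median of their log2 fold changes was -0.0015. KCNQ1OT1, the paternally expressed antisense RNA that silences the neighbouring CDKN1C domain, had 1816, 2270 and 2444 normalized counts with DMSO and 3440, 2936 and 3433 with YK-4-279. All treated libraries were above all controls. It rose from 2177 ± 324 to 3269 ± 289 (SD, n = 3 each), which is 0.59 on the log2 scale with a standard error of 0.10 (limma adjusted p = 0.00741). With the GC and length trend removed together it was 0.26 (adjusted p = 0.0214), and the call was lost without YK-4-279 replicate 1 or 3 (adjusted p = 0.0912 and 0.0639) and without the trend in limma's variance prior (adjusted p = 0.129). GNAS, which encodes the stimulatory G protein alpha subunit and had the highest mean of the list, had 75672 ± 5082 and 66062 ± 639 normalized counts, a log2 fold change of -0.19 (limma adjusted p = 0.101). It passed without DMSO replicate 1, at -0.14 (adjusted p = 0.0367), and with the GC and length trend removed (0.0170). Quantile normalization gave it the same value in every library, so that setting holds no test of GNAS.

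The IGF2 axis, a list of 25 receptors, binding proteins, adaptors and RNA-binding regulators, held no gene past the threshold. Of 20 genes tested by limma, 13 were higher and 7 lower, 5 had an unadjusted p under 0.05 (4 higher and 1 lower, against 18.7% of all genes), and the median log2 fold change was 0.03. Without DMSO replicate 1, 7 of the 20 passed, IGF1R, IRS1, IGF2BP1 and IGF2BP2 among them, where 13.1% of all genes did. IGF2R, the scavenging receptor that clears IGF2 and the member with the highest mean, had 16080 ± 343 and 16610 ± 349 normalized counts, a log2 fold change of 0.05 (limma adjusted p = 0.668). IGF1R, the signalling receptor, had a log2 fold change of 0.12 (limma adjusted p = 0.286), and IRS1, the adaptor below it, of 0.28 (limma adjusted p = 0.0586). IRS1 passed at 0.20 without DMSO replicate 1 (adjusted p = 0.00108), without DMSO replicate 2 (0.0294), with the GC and length trend removed (0.0135) and with scaling to the library total (0.0476). The IGF2 mRNA-binding proteins IGF2BP1, IGF2BP2 and IGF2BP3 lay at -0.08, -0.16 and -0.15 on the log2 scale, with adjusted p-values from limma of 0.473, 0.167 and 0.331. The list's largest values were those of the binding proteins IGFBP7, at 0.70 (limma adjusted p = 0.190), and IGFBP6, at 0.65 (limma adjusted p = 0.107), both with groups that did not overlap. Of the 20 genes, 5 were higher and 2 lower without overlap, where 26.0% of all genes tested had groups that did not overlap. Without DMSO replicate 1 IGFBP6 was nearer 0 and again did not pass, and it passed without DMSO replicate 2 and with the GC and length trend removed.

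Genes that set, keep or read imprints or regulate IGF2 included calls that were lost under several other settings. Of 28 listed, 25 were tested, 9 were higher and 16 lower, and 6 passed, all of which fell, or 24.0% against 3.41% over all genes (2.15% lower). The list was chosen with earlier results of these data known, so this share is a description. The median log2 fold change was -0.08. The 6 calls lay near the threshold. None of the 25 passed in limma under quantile normalization, scaling to the library total, without the variance trend, under the replicate block, or without DMSO replicate 3 or any 1 treated library, where between 7 and 10 of them, and 11.7 to 18.8% of all genes, had an unadjusted p under 0.05. Without DMSO replicate 2 the count was again 6, UHRF1 being lost (adjusted p = 0.0507), and 10 passed without DMSO replicate 1 and 10 with the GC and length trend removed, where 13.1% and 14.0% of all genes did, and TRIM28 was among the 10 in both.

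UHRF1, which recruits the maintenance methyltransferase to newly copied DNA, fell from 11893 ± 1334 to 9397 ± 420 normalized counts (log2 fold change -0.33, standard error 0.08, limma adjusted p = 0.0298). Its treated libraries, at 9843, 9340 and 9009, were all below the controls, at 10356, 12754 and 12568. HELLS, a chromatin remodeller needed for DNA methylation, fell from 1117 ± 45.0 to 903 ± 29.5 (log2 fold change -0.31, limma adjusted p = 0.0284).

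SMCHD1, a chromatin protein of imprinted clusters and the inactive X, fell from 3393 ± 350 to 2775 ± 35.5 normalized counts (log2 fold change -0.28, limma adjusted p = 0.0459). The remaining calls, named after their values were seen, were DNMT1, the maintenance methyltransferase, EZH2, the Polycomb methyltransferase, and HMGA2, a chromatin protein that promotes IGF2 expression. On the log2 scale they fell by 0.24, 0.25 and 0.24, with adjusted p-values from limma of 0.0262, 0.0459 and 0.0491. UHRF1, HELLS, DNMT1 and EZH2 are also known to be most abundant in dividing cells. Whether cell division had a part in their falls was not tested. TRIM28, the corepressor at methylated imprints and the member with the highest mean, had 17143 ± 298 and 15902 ± 389 normalized counts (log2 fold change -0.11, limma adjusted p = 0.282), and CTCF, the insulator protein of the IGF2 domain, had a log2 fold change of -0.04 (limma adjusted p = 0.787).

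**Figure D5:**
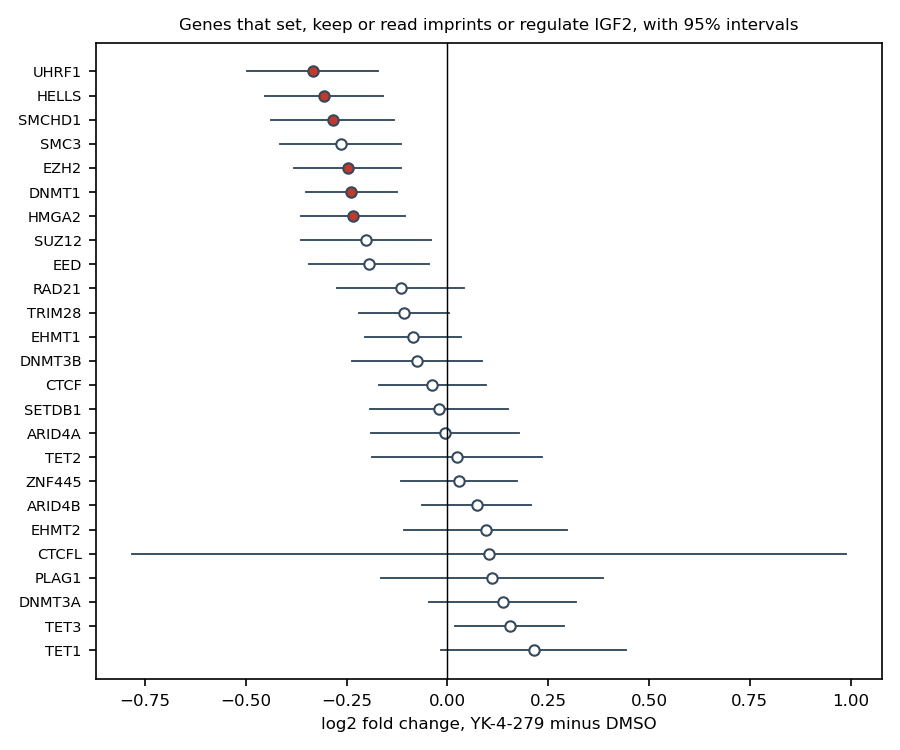
Log2 fold change, YK-4-279 minus DMSO, of the 25 tested genes that set, keep or read imprints or regulate IGF2 (points), with 95% intervals (lines). Filled red points, 6 in all and each below 0, passed the test.

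The genes whose centred log2 values over the 6 libraries lay nearest to those of IGF2, among 10698 genes with a mean of at least 100, were DNA2, CCNE2 and E2F8, at root mean square distances of 0.043, 0.045 and 0.052. DNA2 is a nuclease-helicase of DNA replication, CCNE2 an S phase cyclin and E2F8 a cell cycle transcription factor, and their log2 fold changes were -0.51, -0.53 and -0.48. For MEST the nearest were AEBP2, a Polycomb cofactor, TRIP12, a ubiquitin ligase, and YWHAZ, a 14-3-3 protein, at 0.0060, 0.0090 and 0.011. These genes were picked for their likeness, so their shared pattern is a description.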

How the data were processed

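PolyA RNA of 6 Rh30 samples (3 per group, by the labels) was sequenced. The authors used BBDuk for trimming, STAR 2.7.9a for alignment to hg38 and counting of genes, and DESeq2 1.44.0. The gene annotation is not given in the sources used here. What the authors deposited is a normalized signal for each gene, a read number scaled by a factor of its library (whole reads within 0.001 for 100% of values). Of 35269 rows, 1 without a gene name, with at most 6 reads a library, was left out.

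Here limma 3.58.1 in R 4.3.3 (lmFit, eBayes with trend) was fitted to log2(normalized count + 1) of 13930 genes (mean at least 10), two-sided, with Benjamini-Hochberg adjustment. A fold change on this scale is understated for low genes. On simulated reads of this comparison, 127 of 183 genes changed by 0.5 on the log2 scale were recovered, with 9 false calls among 13932 genes, and 165 of 187 changed by 1, with 6 false calls among 13943. In the simulation, genes of like level shared a common spread and no library stood apart. Recovery and false calls in the real libraries may therefore differ. Positions, lengths and GC content are from GENCODE (hg38), known for 98.4% of tested genes, and sequences from RefSeq (GRCh38.p14).

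Genes and lists were chosen with earlier results of these data known. All 10 imprinted genes are named, and of each other list the tested gene with the highest mean and the 3 largest changes past the threshold with a mean of at least 100. Every called neighbour is named, and the 3 nearest profiles of MEST and IGF2. Other genes were named after their values were seen. Alternatives are in the closing section, and scaling to the library total was added after the data were seen. Of the listed cell type markers, 1 is not reported here, and the sum of its list is left out.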

Additional observations from a re-analysis of the deposited data

How the results depend on the processing

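IGF2 kept its direction under all 15 alternatives and its call under 14, the exception being limma without the variance trend (-0.49, adjusted p = 0.0763). MEST passed under none, and its log2 fold change was -0.066 to 0.036 with single libraries left out, being above 0 without DMSO replicate 1, and 0.022 with scaling to the library total, which raised the median of all genes to 0.05.

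The number of genes called, 475, was 277 under quantile normalization (47.7% of them higher against 37.1%), 33 without the variance trend (90.9% higher), 180 with the replicate block, 1914 with the GC and length trend removed (25.0% higher), 375 with scaling to the library total (62.7% higher) and 19 to 1823 with single libraries left out. Of the imprinted genes 2, 0 and 3 were called under quantile normalization, without the trend and with the GC and length trend removed, and 1 to 3 with single libraries left out. The corresponding counts with the GC and length trend removed were 6 for the other imprinted genes, 4 for the IGF2 axis, 10 for imprint maintenance and 6 for neighbours. Without the variance trend they were 0 for the other imprinted genes, for imprint maintenance and for neighbours. Imprint maintenance had 0 under quantile normalization, under the replicate block and with scaling to the library total, under which the IGF2 axis had 1, and neighbours had 1 under the block. With single libraries left out the ranges were 0 to 6, 0 to 7, 0 to 10 and 0 to 6. The cause was not tested.

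The ratio of MEG3 to DLK1 differed by 0.30 to 1.13 with single libraries left out. The ratio of H19 to IGF2, set by the pseudocount (0.02 with 0.5 and 0.39 with 10), differed by -0.28 to 0.81 with single libraries left out and was below 0 without DMSO replicate 2 or 3 or YK-4-279 replicate 2. The count of imprinted genes in the top 1% per kilobase was 1 by the longest transcript. Same-numbered libraries did not deviate together (r = -0.10, -0.03 and -0.03), so the replicate numbers were not taken as pairs. The planned TMM, edgeR and DESeq2 fits on recovered reads were not run, because in 2 libraries the step between values is within 0.1% of 1, which cannot be told from rounding by its size alone. Depth limits H19, DLK1 and NDN.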
